A study of Mus musculus with 18 samples.

Results

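The genes examined here encode Golgi enzymes that lengthen, branch and cap glycans, together with the Galnt enzymes, which start O-glycans. Members were taken by symbol as the Galnt, B3gnt, B3galt, B4galt, B4galnt, St3gal, St6gal (with St6galnac), St8sia, Fut, Chst and Mgat families, without B3gnt6, Galnt3, Galnt4, Galnt7 and Galnt12. The pattern matched 88 of the 24047 genes in the count table. Of these, 61 had at least 10 counts in 3 or more libraries and are described below, and 0 of them reached this through 1 group only. The other 27 had 0 to 80 counts summed over all libraries, and 6 of them had no count.

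The crypt epithelium of the colon was profiled by RNA-Seq in C57BL/6 mice, in 18 libraries that form 6 groups of 3. WT mice and Ern2-/- mice, which by label lack the epithelial ER stress sensor ERN2 (IRE1β), were kept germ free (GF-WT, GF-Ern2-/-), or were colonized by gavage of cecal contents after a germ-free life and studied on day 14 (COLONIZED-WT, COLONIZED-Ern2-/-), or were raised conventionally (CONV-WT, CONV-Ern2-/-). Comparisons of these groups address the response of the colon epithelium to microbes and whether it varies with the Ern2 genotype. The study describes CONV-WT mice as donors of the microbes, and the labels name no donor. Per the study's methods, colonized mice also moved from the isolator to sterile cages, so that microbes and housing cannot be told apart. The study further reports a stool microbiota in CONV-Ern2-/- mice that was less diverse than in CONV-WT mice and differed in taxa. Comparisons of CONV-Ern2-/- with CONV-WT or COLONIZED-Ern2-/- may thus also differ in microbial community, which cannot be told apart from genotype or state.

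Mucin-type O-glycans and N-glycans each have a core. GlcNAc transferases and galactosyltransferases then lengthen them in alternating steps, the Mgat enzymes open further branches on N-glycans, and fucosyltransferases, sialyltransferases, B4galnt enzymes and sulfotransferases finish the chain ends. In the colon these ends cover the secreted mucin Muc2 and the cell surface, where gut bacteria bind or digest them.

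Libraries held from 5865619 to 23154481 counts. The sum of 7 epithelial markers was 108500 to 165400 normalized counts in every library, and that of B and plasma cell markers at most 22.2. Mesenchyme markers (8 genes) summed to 239 in CONV-WT replicate 3 and to 147 and 174 in CONV-Ern2-/- replicates 2 and 3, and to 4.17 to 49.4 in the other 15 libraries. Sums were 95.3 to 378 for other immune markers and 27.9 to 166 for endothelial ones. Normalized Ern2 counts were 1909 to 3100 in WT and 386 to 3336 in the libraries labelled Ern2-/-, and 3 of the latter (GF-Ern2-/- replicates 1 and 3, COLONIZED-Ern2-/- replicate 1) were in or above the WT range. Genotype therefore means the label below. Sex, read from Y-linked genes, was not balanced. Male libraries numbered 0 of 3 in GF-WT, 2 in COLONIZED-WT, 1 in CONV-WT, 2 in GF-Ern2-/-, 2 in COLONIZED-Ern2-/- and 3 in CONV-Ern2-/-. Where a group held 1 sex only, a fit with sex as a covariate rests on libraries of that sex in the other group. Against GF-WT this is COLONIZED-WT replicate 2 alone, and against CONV-Ern2-/- it is CONV-WT replicate 1 alone. Calls gained or lost in such fits do not show an effect of sex. Goblet marker sums (8 genes) in CONV-WT were 454600, 411800 and 74850 in replicates 1, 2 and 3, and colonocyte marker sums (6 genes) were 26280, 56950 and 279100. CONV-Ern2-/- had goblet sums of 63830 to 73340 and colonocyte sums of 285500 to 402200. In bulk RNA, fewer cells of a type and less RNA per cell cannot be told apart.

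**Figure D1:**
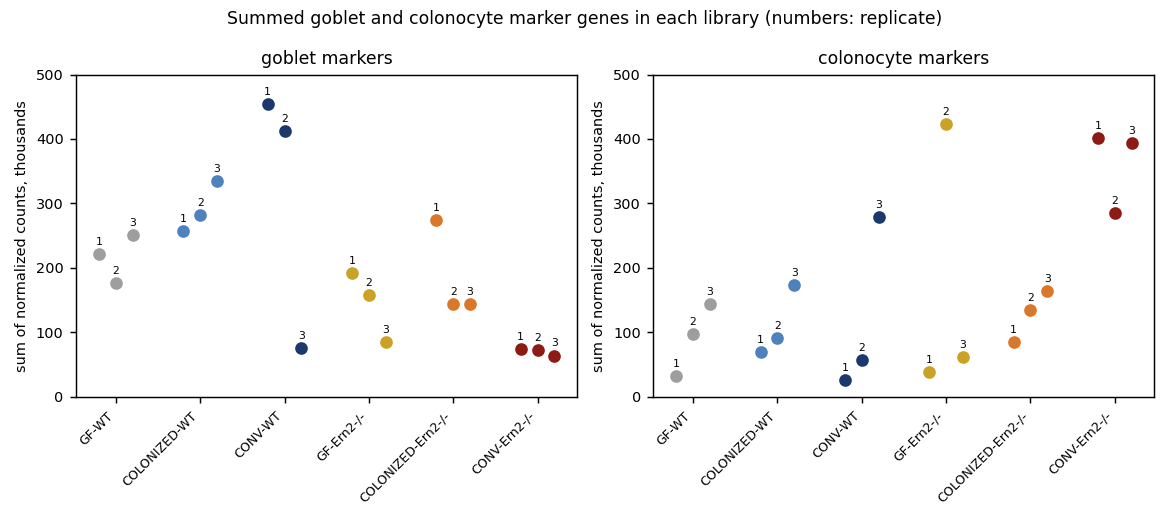
Summed normalized counts of 8 goblet and 6 colonocyte marker genes in each of 18 libraries, by group. CONV-WT replicate 3 (goblet 74850, colonocyte 279100) lies apart from the other CONV-WT libraries and near the CONV-Ern2-/- libraries.

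Levels were compared between genes as normalized counts per kb of exon. B4galnt2, which adds the terminal GalNAc of the Sda (Cad) antigen, had the highest mean of all members at 12750 per kb, and its 4-gene family held 41.8% of the summed member level. Mgat4b, which starts a branch on N-glycans, had 2506 per kb in a family holding 13.8%. B4galnt2 was first in each of the 6 groups, and the second place went to B3gnt7 in both GF groups (3425 in GF-WT and 2601 in GF-Ern2-/-), to St6galnac6 in both COLONIZED groups (2624 and 2413) and to Mgat4b in both CONV groups (2698 and 2515 per kb). The β1,3-GlcNAc transferases, taken by symbol, held 10.7%, with B3gnt7, an enzyme of lactosamine chains, at 1877 and B3gnt3, which extends core 1 O-glycans, at 1249 per kb. This family includes B3gnt1 (118 per kb), which the gene annotation names B4gat1, so its place here rests on the older symbol alone. Of the sialyltransferases, St6galnac6 stood at 2272 and St3gal4 at 1096 per kb.

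By the mean over all libraries, the remaining families were led by B3galt5 (976 per kb), which builds type 1 chains, Galnt6 (709), an initiator of O-glycans, the secretor α1,2-fucosyltransferase Fut2 (616), the GlcNAc sulfotransferase Chst4 (576) and the galactosyltransferase B4galt1 (479.8). In both GF groups, however, Galnt10 (608 in GF-WT, 465 in GF-Ern2-/-) was above Galnt6 (584 and 428), and Fut4 (688 and 649) was above Fut2 (541 and 373). B4galt4 was above B4galt1 in CONV-WT and in COLONIZED-Ern2-/-. Within the α2,3-sialyltransferases mean levels ran from 2.77 per kb for St3gal2 to that of St3gal4. In COLONIZED-Ern2-/- St3gal4 (186 per kb) was below St3gal3 (329) and St3gal6 (198). B3gnt7 was likewise below B3gnt3 in CONV-Ern2-/-. St6galnac1, the sialyl-Tn synthase, had 0 to 11.9 normalized counts over the 18 libraries, and Chst5, another GlcNAc sulfotransferase, had 0 to 24.7. Both were near the counting limit. Of the 7 α2,8-sialyltransferase symbols, St8sia5 alone was retained (6.13 per kb).

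**Figure D2:**
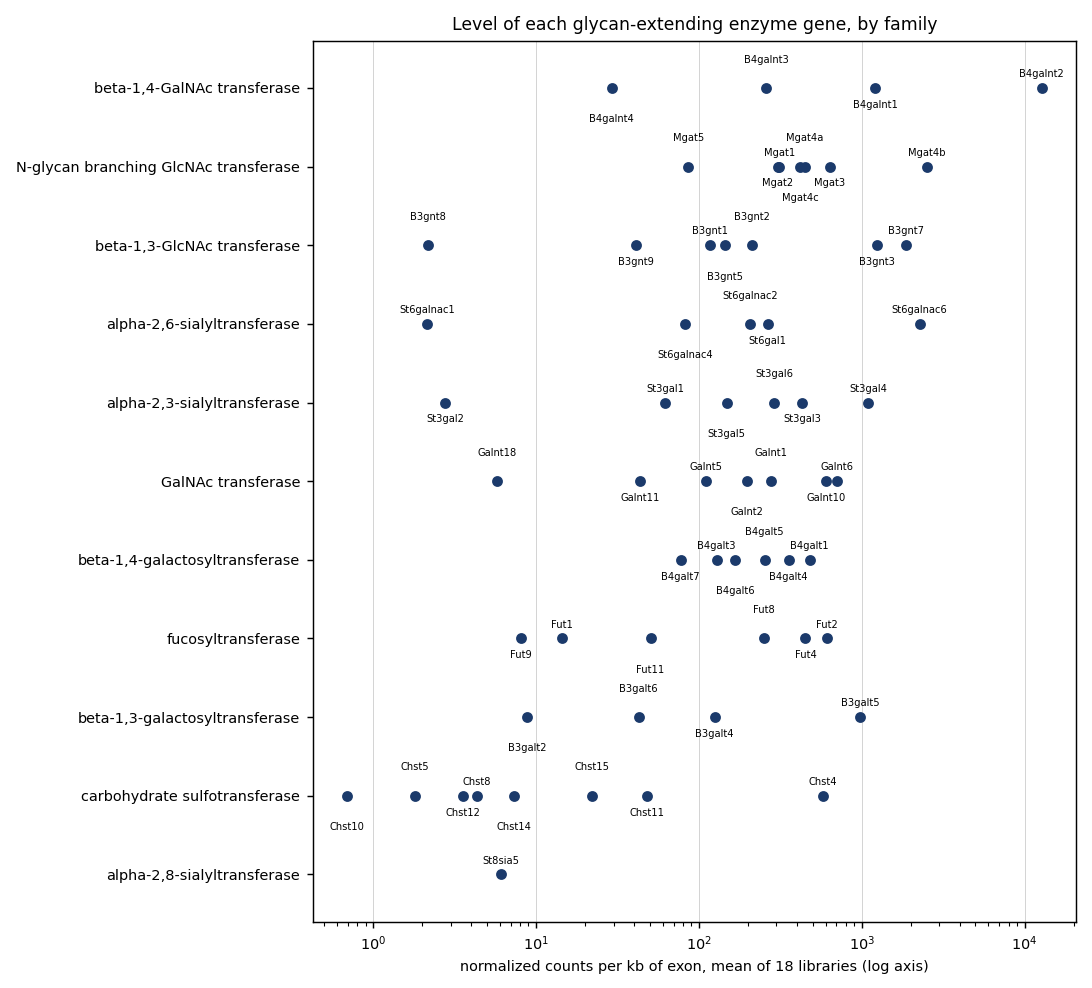
Mean normalized counts per kb of exon over 18 libraries (log axis) for the 61 members, by enzyme family. B4galnt2 is highest at 12750 per kb and Chst10 lowest at 0.697 per kb.

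To examine the response to microbes in WT mice, COLONIZED-WT was first compared with GF-WT. The members that rose were B3gnt9, B4galt4, Galnt6, Galnt10 and the chain-end enzymes Fut1, Fut2, B4galnt2, B4galnt4 and Chst4, while St8sia5, Galnt18, B3gnt2, B4galnt3 and Mgat4a fell. DESeq2 called 14 of 61 members at an adjusted p under 0.01 (23%), beside 18.3% of all genes tested, so the share was close to the background. Of these, 9 were higher (9.35% of all genes were) and 5 lower (8.97%). The median log2 fold change was -0.08 for the members and -0.01 for all genes tested. The edgeR test called 2 members, B3gnt9 and St8sia5, and 4.94% of all genes. In the DESeq2 fit 4 goblet markers were called higher and 2 lower of 8, and 0 colonocyte markers higher and 2 lower of 6. It also called 1 of 7 epithelial markers higher, 3 of 6 stem and proliferation markers higher and 4 of 5 tuft markers higher, and the part of these shifts in the member values was not tested. With sex as a covariate B3gnt9 and St8sia5 alone remained called (1.92% of all genes), and the adjusted p of the other 12 ranged from 0.0993 to 0.443.

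B3gnt9, a member of the β1,3-GlcNAc transferase family, had 36.9, 61.0 and 45.1 normalized counts in GF-WT and 189, 175 and 210.4 in COLONIZED-WT. Every colonized library was above every germ-free one. The mean rose 4.02-fold (log2 fold change 2.01, SE 0.25, DESeq2 adjusted p = 8.92e-14), and the call held in 6 of 6 fits that each left out 1 library. B3gnt9 lies on chromosome 8 at 105252638 to 105255153 (GRCm38) and overlaps D230025D16Rik on the other strand. How the counting treated strand is not given in the sources used here. D230025D16Rik itself had 358 to 403 normalized counts in GF-WT and 329 to 369 in COLONIZED-WT.

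Fut1 adds the α1,2-linked fucose of the H antigen, as does its chromosome 7 neighbour Fut2. It had 16.9, 23.8 and 13.9 normalized counts in GF-WT and 65.6, 51.4 and 46.0 in COLONIZED-WT, without overlap. The rise was 2.99-fold (log2 fold change 1.59, SE 0.37, DESeq2 adjusted p = 0.000226) and was called in 5 of 6 fits, the exception being adjusted p 0.0108 without COLONIZED-WT replicate 1. Fut2, far more abundant, went from 2951, 2649 and 3209 to 4504, 4238 and 3667, also without overlap (log2 fold change 0.50, SE 0.14, DESeq2 adjusted p = 0.00316). It was called in 3 of 6 fits and its adjusted p reached 0.0379 without COLONIZED-WT replicate 1.

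B4galnt2 had 6155, 11810 and 11920 normalized counts in GF-WT and 18790, 21120 and 27800 in COLONIZED-WT. All colonized libraries were higher, the mean rose 2.27-fold (log2 fold change 1.19, SE 0.26, DESeq2 adjusted p = 5.77e-05), and 6 of 6 fits called it. B4galnt4, which makes LacdiNAc, rose 2.75-fold, from 57.8 ± 32.6 to 159 ± 53.1 normalized counts (mean ± SD, n = 3; DESeq2 adjusted p = 0.00223), and was called in 3 of 6 fits, with adjusted p 0.0758 without COLONIZED-WT replicate 1. Chst4 went from 1470, 1041 and 1157 to 1974, 1788 and 1764, a 1.51-fold rise (DESeq2 adjusted p = 0.00185) called in 2 of 6 fits, with adjusted p 0.031 without COLONIZED-WT replicate 1.

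Smaller rises were those of B4galt4, a galactosyltransferase (1.53-fold, DESeq2 adjusted p = 0.000491, 6 of 6 fits), and of the O-glycan initiators Galnt6 (1.68-fold, adjusted p = 0.00491, 2 of 6) and Galnt10 (1.33-fold, adjusted p = 0.00303, 1 of 6). The highest adjusted p was 0.0598 without COLONIZED-WT replicate 1 for Galnt6 and 0.0264 without COLONIZED-WT replicate 3 for Galnt10. No sialyltransferase passed as higher in this comparison.

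Among the members that fell, St8sia5, which adds α2,8-linked sialic acid to gangliosides, had 133, 111 and 45.8 normalized counts in GF-WT and 4.99, 11.0 and 7.14 in COLONIZED-WT. The groups were apart (log2 fold change -3.64, SE 0.50, DESeq2 adjusted p = 3.45e-11; 6 of 6 fits), and the mean fell 12.5-fold. Galnt18, also low, went from 35.3, 42.0 and 29.2 to 6.42, 15.4 and 4.76, again without overlap (log2 fold change -1.99, SE 0.52, DESeq2 adjusted p = 0.00117). It was called in 3 of 6 fits, with adjusted p 0.0282 without GF-WT replicate 2.

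B3gnt2, a main poly-N-acetyllactosamine synthase, had 897, 1225 and 1566 normalized counts in GF-WT and 362, 552 and 728 in COLONIZED-WT. B4galnt3, the other LacdiNAc synthase, had 2733, 1785 and 1468 in GF-WT and 766, 1157 and 755 after colonization. Mgat4a, which makes the same branch as Mgat4b, had 11070, 7922 and 8281 in GF-WT and 4116, 6005 and 5073 in the colonized group. In all 3 genes each colonized library was below each germ-free one. The log2 fold changes were -1.16 (SE 0.27), -1.15 (SE 0.25) and -0.83 (SE 0.19), with DESeq2 adjusted p of 0.000276, 9.16e-05 and 0.000164, and each was called in 6 of 6 fits. With sex as a covariate the adjusted p were 0.115, 0.206 and 0.202. In 1 fit of all 18 libraries B4galt4, B4galnt2, B4galnt3, Chst4, Fut2, Galnt10, Galnt6 and Mgat4a were not called, with adjusted p from 0.0407 to 0.384.

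**Figure D3:**
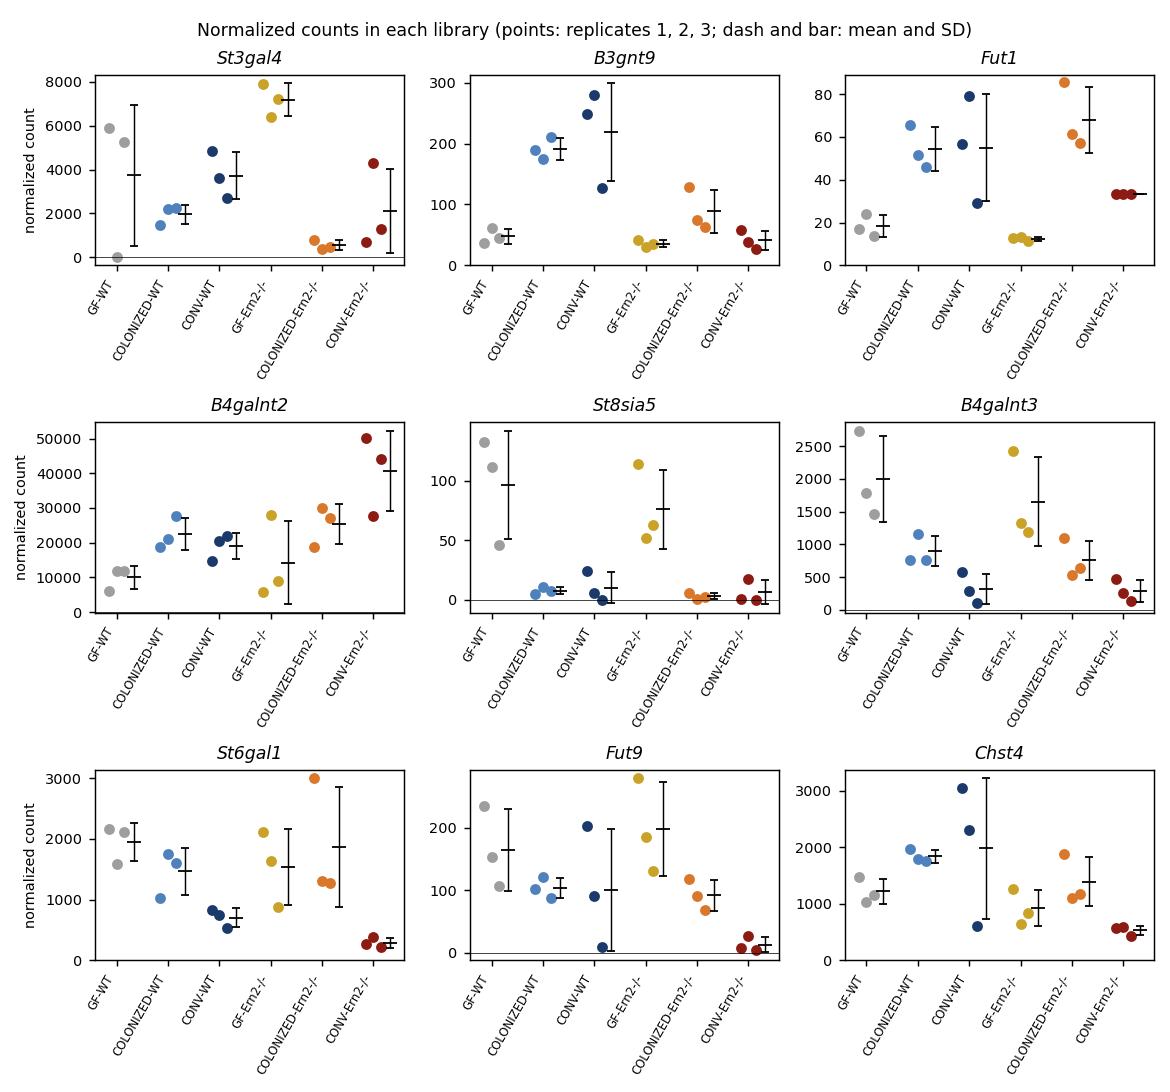
Normalized counts of selected members in every library, by group (points, libraries; bars, mean and SD, n = 3). B3gnt9 and Fut1 are higher in both WT groups with microbes than in GF-WT, and GF-WT replicate 2 has 18.2 normalized counts of St3gal4 where the other GF-WT libraries have 5908 and 5258.

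CONV-WT was compared with the same GF-WT libraries, so these values share their controls with those above. DESeq2 called 10 of 61 members (16.4%; 11% of all genes tested), 2 higher (5.68% of genes) and 8 lower (5.28%). By edgeR 0 were called (0.175% of genes), and the members under an unadjusted p of 0.05 numbered 15, beside 17 in DESeq2. Shares of all genes under an unadjusted p of 0.05 are not given here or below. Such counts therefore do not compare the members with other genes. B3gnt9 had 249, 280.5 and 128 normalized counts in CONV-WT, all above GF-WT (log2 fold change 2.20, SE 0.39, DESeq2 adjusted p = 1.11e-06; 6 of 6 fits). Fut1 had 56.6, 79.0 and 29.2, also above every GF-WT library (log2 fold change 1.60, SE 0.49, DESeq2 adjusted p = 0.00917), but was called in 1 of 6 fits and reached adjusted p 0.186 without CONV-WT replicate 2.

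St6gal1, which caps N-glycans with α2,6-linked sialic acid, had 833, 742 and 535 normalized counts in CONV-WT and 2162, 1590 and 2106 in GF-WT. The groups did not overlap and the mean fell 2.78-fold (log2 fold change -1.48, SE 0.25, DESeq2 adjusted p = 3.72e-07; 6 of 6 fits). B4galnt3, with 569.6, 284 and 106 in CONV-WT, was below the lowest GF-WT library throughout (log2 fold change -2.65, SE 0.57, DESeq2 adjusted p = 8.22e-05). B3gnt2 (log2 fold change -1.28, SE 0.27, DESeq2 adjusted p = 5.33e-05) fell as well, and both calls held in 6 of 6 fits.

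The other falls rested more on single libraries. Galnt18 (-2.46) and Mgat4a (-1.55, both log2) were called in 4 of 6 fits each, with a highest DESeq2 adjusted p of 0.0114 without CONV-WT replicate 2 and 0.0189 without GF-WT replicate 1. St8sia5 (-3.20) was called in 3 of 6, with adjusted p 0.0573 without GF-WT replicate 2. B4galt1 (-0.63) was called in 2 of 6, with adjusted p 0.124 without GF-WT replicate 2, and the O-glycan initiator Galnt11 (-0.79) in 1 of 6, with adjusted p 0.0824 without CONV-WT replicate 2. Sex as a covariate ended the calls of B4galt1 (0.112), Fut1 (0.0729) and Galnt11 (0.0203), and 1 fit of all 18 libraries that of B4galt1 (0.112), with the adjusted p in parentheses.

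CONV-WT replicate 3 stood apart from its group. It was the lowest of its group in 49 of 61 members. The members took 0.475% of its counts, against 0.878% and 0.812% in replicates 1 and 2, beside the marker sums given above. In it 30 of 61 members were more than 2-fold below both other CONV-WT libraries, beside 12.9% of all genes above a minimum mean level. The share of all genes that were lowest in this library is not given here. Leaving it out raised the calls against GF-WT to 16, in a fit that called 20.8% of all genes, and the rises then included Fut2 (0.82, adjusted p = 6.39e-07), B4galt4 (0.93, adjusted p = 1.64e-08), Chst4 (1.13, adjusted p = 6.57e-06) and St3gal3 (0.85, adjusted p = 6.6e-05), an α2,3-sialyltransferase (log2 values, DESeq2). With all libraries Fut2 gave 0.43 (SE 0.46, DESeq2 adjusted p = 0.571) and Chst4 0.69 (SE 0.54, adjusted p = 0.408). In CONV-WT against GF-WT with all libraries, 2 goblet markers were called higher and 2 lower of 8, and 0 colonocyte markers higher and 3 lower of 6 by DESeq2. That fit also called 1 of 7 epithelial markers higher, 1 of 6 stem and proliferation markers higher, 3 of 5 tuft markers higher and 2 of 6 mesenchyme markers higher, and the part of these shifts in the member values was not tested.

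CONV-WT against COLONIZED-WT gave 0 called members of 61 in DESeq2 (0.119% of all genes tested) and 0 in edgeR (0% of genes). Each tool had 5 members under an unadjusted p of 0.05. The smallest DESeq2 adjusted p was 0.0479, for St6gal1 (-1.07, SE 0.29). Without CONV-WT replicate 3, St6gal1 (-0.91, adjusted p = 0.00448), Galnt5 (0.61, adjusted p = 0.00481), an O-glycan initiator, and St3gal4 (1.10, adjusted p = 5.83e-05) passed in DESeq2, as did 1.59% of all genes.

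**Figure D4:**
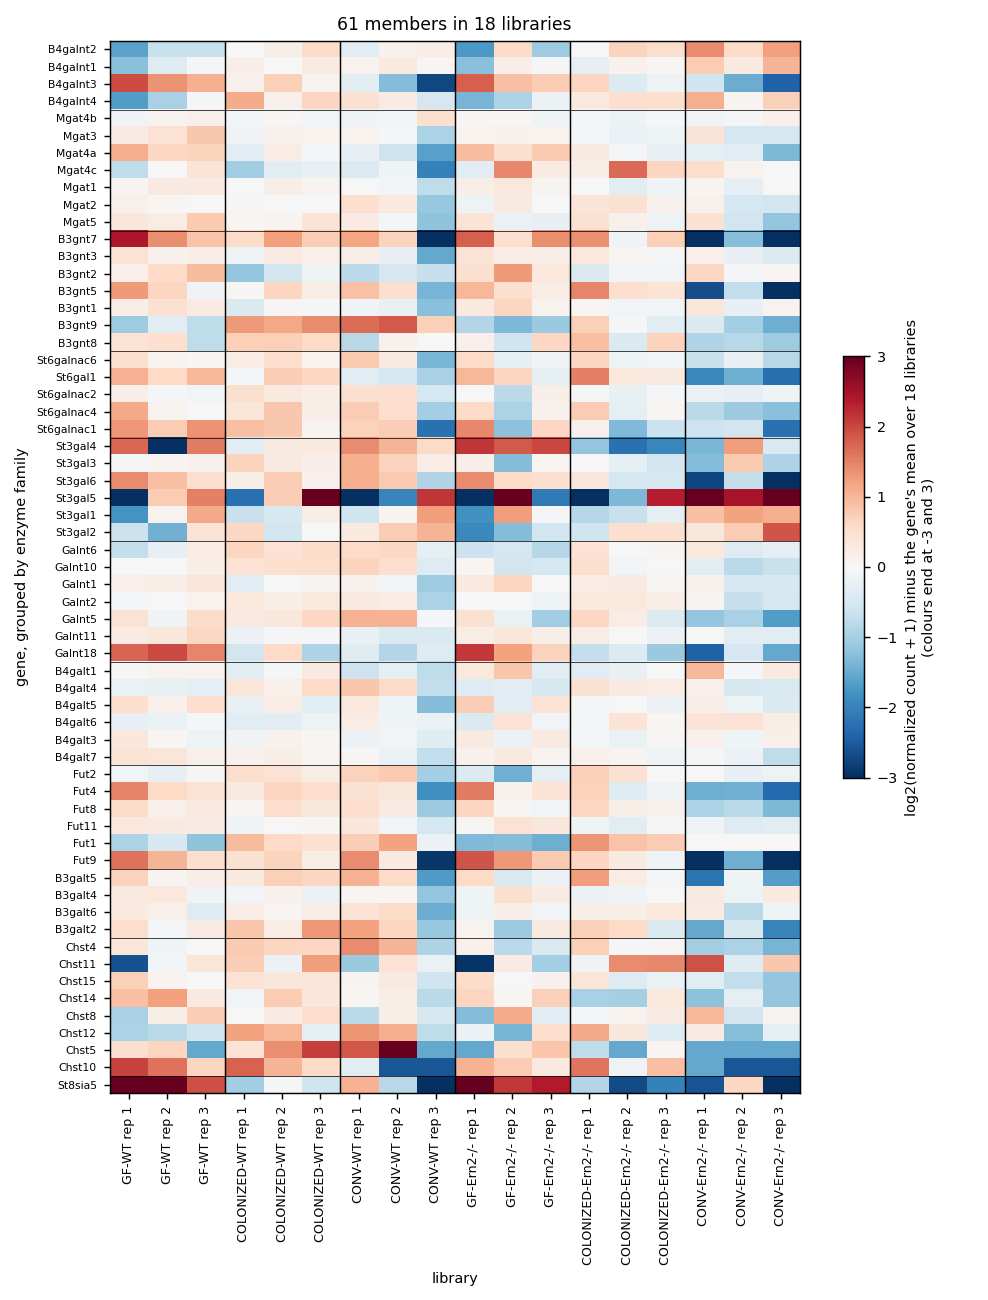
Log2 normalized counts of the 61 members, each relative to its mean over 18 libraries (colour), with genes in rows by family and libraries in columns by group. CONV-WT replicate 3 is the lowest library of its group in 49 of the 61 rows (share of all genes not given).

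St3gal4 adds α2,3-linked sialic acid to galactose at the ends of lactosamine chains. In mice labelled Ern2-/- it had 7927, 6422 and 7226 normalized counts without microbes and 787, 382 and 461 after colonization. The groups were far apart, and the mean fell 13.2-fold (log2 fold change -3.73, SE 0.28, DESeq2 adjusted p = 1.91e-35; edgeR adjusted p = 0.0059), with a call in 6 of 6 fits. COLONIZED-WT had 1450, 2175 and 2219, all above COLONIZED-Ern2-/-. That difference between labels was 3.59-fold (log2 fold change -1.85, SE 0.26, DESeq2 adjusted p = 1.04e-09; 6 of 6 fits). It missed the threshold in edgeR (adjusted p = 0.0659) and in 1 DESeq2 fit of all 18 libraries (SE 1.05, adjusted p = 0.512), where the fall in mice labelled Ern2-/- kept its call (adjusted p = 0.00552).

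In WT the response of St3gal4 turned on GF-WT replicate 2, with 18.2 normalized counts against 5908 and 5258 in replicates 1 and 3. COLONIZED-WT minus GF-WT was -0.93 (SE 1.53, DESeq2 adjusted p = 0.688) with this library and -1.51 (SE 0.23, adjusted p = 5.65e-09) without it. The interaction of genotype and colonization was -2.79 (SE 1.63, DESeq2 adjusted p = 0.928) with it and -2.21 (SE 0.40, adjusted p = 3.88e-05) without it. CONV libraries overlapped between labels, at 4827, 3622 and 2688 in WT and 692, 4295 and 1300 in Ern2-/-. Their difference was -0.83 (SE 0.61, DESeq2 adjusted p = 0.541) with all libraries and -1.9 (SE 0.41, adjusted p = 0.000341) without CONV-Ern2-/- replicate 2, the highest of its group.

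Promoters of 4 members are shown because IRE1 enzymes splice Xbp1 mRNA, and the resulting factor binds sites with a CCACG core. RefSeq promoters matched 67 of the 88 symbols, with 89 start sites. On both strands, 34 of these held CCACG (38.2%; 32.8% of all 32851 promoters of this length) and 1 held TGACGTG (1.12%; 2.01% of all). The ER stress elements ERSE and ERSE-II, which both contain CCACG, were in 0 and 0 member promoters (0.119% and 0.0365% of all). Each sequence runs 5′ to 3′ on the gene's strand from 250 bases before to 50 bases after the start (GRCm38.p6), with CCACG or TGACGTG on either strand in capitals. St3gal4 is at chr9:35116815-35117114 (minus strand), Fut1 at chr7:45617356-45617655 (plus), B4galnt3 at chr6:120294848-120295147 (minus) and B3gnt5 at chr16:19759984-19760283 (plus).
St3gal4: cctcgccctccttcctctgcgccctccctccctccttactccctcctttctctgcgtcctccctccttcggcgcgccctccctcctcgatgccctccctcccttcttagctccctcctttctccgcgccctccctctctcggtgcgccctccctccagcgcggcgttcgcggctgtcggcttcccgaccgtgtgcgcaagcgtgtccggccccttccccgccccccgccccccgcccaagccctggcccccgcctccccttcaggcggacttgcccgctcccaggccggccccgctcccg
Fut1: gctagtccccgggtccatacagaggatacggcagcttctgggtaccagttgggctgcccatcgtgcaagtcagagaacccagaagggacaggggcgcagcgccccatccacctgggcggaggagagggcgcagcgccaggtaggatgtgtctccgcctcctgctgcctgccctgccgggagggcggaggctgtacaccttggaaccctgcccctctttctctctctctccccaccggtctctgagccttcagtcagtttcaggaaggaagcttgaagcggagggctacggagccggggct
B4galnt3: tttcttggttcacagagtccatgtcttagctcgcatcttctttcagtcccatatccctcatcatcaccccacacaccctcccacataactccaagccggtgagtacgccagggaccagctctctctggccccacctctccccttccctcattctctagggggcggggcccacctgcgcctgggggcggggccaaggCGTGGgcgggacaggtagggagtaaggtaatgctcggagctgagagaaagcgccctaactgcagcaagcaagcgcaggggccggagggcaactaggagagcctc
B3gnt5: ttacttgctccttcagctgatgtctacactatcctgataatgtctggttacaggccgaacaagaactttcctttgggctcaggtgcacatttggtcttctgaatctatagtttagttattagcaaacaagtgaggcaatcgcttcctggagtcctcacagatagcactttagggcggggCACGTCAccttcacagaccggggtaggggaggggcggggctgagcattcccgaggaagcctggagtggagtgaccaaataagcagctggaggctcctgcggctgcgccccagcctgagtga
The St3gal4 and Fut1 windows hold no match. B4galnt3 holds a CCACG core, and B3gnt5, which starts lacto-series glycolipids, holds the only TGACGTG of the member promoters. A match of letters is not a site of binding.

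Over all members, COLONIZED-Ern2-/- against GF-Ern2-/- gave 7 calls of 59 by DESeq2 (11.9%; 7.17% of all genes tested), 3 higher (3.6% of genes) and 4 lower (3.57%). The single edgeR call was St3gal4 (0.216% of genes). Among cell markers 3 goblet markers were called higher and 1 lower of 8, and 0 colonocyte markers higher and 4 lower of 6 (DESeq2). The fit also called 2 of 6 stem and proliferation markers higher, 3 of 5 enteroendocrine markers higher, 1 of 5 tuft markers higher and 1 of 2 endothelial markers lower, with the part of these shifts not tested. The median log2 fold change was 0.04 for the members and -0.02 for all genes tested. Fut1 had 12.7, 13.0 and 11.5 normalized counts in GF-Ern2-/- and 85.4, 61.2 and 57.2 in COLONIZED-Ern2-/-, a 5.48-fold rise without overlap (log2 fold change 2.45, SE 0.42, DESeq2 adjusted p = 6.75e-07; 6 of 6 fits). B4galt4 (log2 fold change 0.71, SE 0.17, DESeq2 adjusted p = 0.000761) rose in 5 of 6 fits, with adjusted p 0.0139 without COLONIZED-Ern2-/- replicate 1, and Galnt6 (0.83, adjusted p = 0.000984) in 4 of 6, with adjusted p 0.0158 without COLONIZED-Ern2-/- replicate 1.

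St8sia5 went from 114, 52.1 and 62.5 normalized counts to 5.70, 0.9 and 2.01 (log2 fold change -4.66, SE 0.67, DESeq2 adjusted p = 7.34e-10; 6 of 6 fits), again without overlap. Galnt18 (log2 fold change -2.37, SE 0.66, DESeq2 adjusted p = 0.00564) and Mgat4a (-0.72, adjusted p = 0.009) were called in 2 of 6 fits each, with adjusted p 0.117 without GF-Ern2-/- replicate 1 and adjusted p 0.0968 without COLONIZED-Ern2-/- replicate 3. B3gnt9, at 41.8, 30.1 and 35.4 without microbes and 129, 74.7 and 62.2 with them, did not overlap between the groups but missed the threshold (log2 fold change 1.31, SE 0.40, DESeq2 adjusted p = 0.0129). The threshold was also missed by Fut2 (1.03, adjusted p = 0.0165), B4galnt2 (0.82, adjusted p = 0.286) and Chst4 (0.59, adjusted p = 0.217; DESeq2). Without GF-Ern2-/- replicate 2, the library with the high colonocyte sum of 423900, the calls numbered 12 (10.4% of all genes), 5 of them higher, and took in B4galnt2 (1.79, adjusted p = 2.44e-09) and Fut2 (0.77, adjusted p = 0.00849; DESeq2). The adjusted p rose above 0.01 for Mgat4a (0.0136) with sex as a covariate and for B4galt4 (0.0754), Galnt6 (0.0198) and Mgat4a (0.115) in 1 fit of all 18 libraries.

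Without the libraries labelled Ern2-/- that had Ern2 in the WT range, 9 members were called (10.5% of all genes, DESeq2), with GF-Ern2-/- replicate 2 alone, which is assumed to vary like the others, against COLONIZED-Ern2-/- replicates 2 and 3. St3gal4 and St8sia5 remained called, and B4galt4 (0.177), Fut1 (0.0519), Galnt18 (0.327), Galnt6 (0.153) and Mgat4a (0.0666) missed the threshold (adjusted p in parentheses).

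CONV-Ern2-/- was compared with the same GF-Ern2-/- libraries. DESeq2 called 9 of 60 members (15%; 4.33% of all genes tested), all lower (2.77% of genes), and edgeR called 0 (0.0325% of genes). In both tools 27 members were under an unadjusted p of 0.05 (share of all genes not given). The median log2 fold change was -0.42 for the members and -0.01 for all genes tested. For CONV-Ern2-/- against GF-Ern2-/-, 0 goblet markers were called higher and 3 lower of 8, and 0 colonocyte markers higher and 0 lower of 5. DESeq2 also called 2 of 5 enteroendocrine markers higher, 2 of 5 tuft markers higher and 1 of 6 mesenchyme markers higher (part not tested). Fut9, which adds the fucose of Lewis x, had 279, 186 and 130.3 normalized counts in GF-Ern2-/- and 8.35, 26.7 and 5.52 in CONV-Ern2-/-. The mean fell 14.7-fold, without overlap (log2 fold change -3.92, SE 0.55, DESeq2 adjusted p = 3.58e-10).

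The lack of higher calls depended on the fit. With GF-Ern2-/- replicate 2 kept, B4galnt4 passed as higher with sex as a covariate (1.89, DESeq2 adjusted p = 0.00185). B4galnt2 did so with a replicate block (1.84, DESeq2 adjusted p = 0.00717). Without GF-Ern2-/- replicate 2 DESeq2 called 13 members (7.14% of all genes), and 4 were higher in CONV-Ern2-/-, B4galnt2 (2.45, adjusted p = 3.14e-11), St3gal5 (6.67, adjusted p = 1.6e-07), St3gal1 (1.74, adjusted p = 0.00373) and the chondroitin sulfotransferase Chst11 (2.77, adjusted p = 0.00124). With all libraries B4galnt2 gave 1.52, adjusted p = 0.0331, St3gal4 -1.79, adjusted p = 0.0116, Chst4 -0.80, adjusted p = 0.0908 and Fut2 0.49, adjusted p = 0.428 (log2, DESeq2).

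Fut4, which adds the same fucose and is more abundant, went from 4341, 1630 and 1965 to 534, 542 and 292 normalized counts (log2 fold change -2.54, SE 0.40, DESeq2 adjusted p = 6.85e-08). St6gal1 went from 2108, 1629 and 874 to 274, 378 and 218 (log2 fold change -2.41, SE 0.36, DESeq2 adjusted p = 6.11e-09). Neither gene overlapped between the groups. The calls of Fut9, Fut4, St6gal1 and B4galnt3 (-2.54, adjusted p = 1.5e-06) held in 6 of 6 DESeq2 fits.

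Fut8, the core fucosyltransferase of N-glycans, fell 2.38-fold (DESeq2 adjusted p = 0.000383; 4 of 6 fits, up to adjusted p 0.015 without CONV-Ern2-/- replicate 3). Mgat4a fell 2.49-fold (DESeq2 adjusted p = 0.00123; 4 of 6, up to adjusted p 0.0376 without GF-Ern2-/- replicate 1), and the α2,3-sialyltransferase St3gal6 fell 6.46-fold (adjusted p = 5.97e-05; 4 of 6, up to adjusted p 0.0494 without GF-Ern2-/- replicate 3). B3gnt5 (-2.45, adjusted p = 0.00044) and St8sia5 (-3.71, adjusted p = 0.000561) were called by DESeq2 in 2 of 6 fits each, with adjusted p 0.0886 without GF-Ern2-/- replicate 2 and adjusted p 0.0685 without GF-Ern2-/- replicate 1. With sex as a covariate St3gal6 (0.0459) and Mgat4a (0.0156) missed the threshold. Against GF-Ern2-/- replicate 2 alone, without the libraries in the WT range of Ern2, St3gal6 (0.404), St8sia5 (0.259), B3gnt5 (0.437), Fut8 (0.0569) and Mgat4a (0.152) missed it as well, and Fut9, Fut4, St6gal1 and B4galnt3 kept their calls in a fit that called 3.18% of all genes. That fit also called Fut2 as higher (1.31, adjusted p = 0.00284).

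Between both states with microbes, CONV-Ern2-/- differed from COLONIZED-Ern2-/- in 10 of 57 members by DESeq2 (17.5%; 8.59% of all genes tested), with 1 higher (4.86% of genes) and 9 lower (3.73%). The single edgeR call was St3gal1 (0.282% of genes). St3gal1, which caps core 1 O-glycans with α2,3-linked sialic acid, had 192, 219 and 284 normalized counts in COLONIZED-Ern2-/- and 648, 802 and 739.5 in CONV-Ern2-/-. The groups did not overlap (log2 fold change 1.66, SE 0.22, DESeq2 adjusted p = 8.79e-12; edgeR adjusted p = 0.00764; 6 of 6 fits). High values were also found in CONV-WT replicate 3 (833), GF-WT replicate 3 (764) and GF-Ern2-/- replicate 2 (823).

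St6gal1 (-2.68, DESeq2 adjusted p = 1.54e-11), Fut8 (-1.33, adjusted p = 2.9e-07), Fut4 (-1.83, adjusted p = 1.57e-06), Chst4 (-1.39, adjusted p = 6.33e-06) and Fut9 (-2.81, adjusted p = 6.4e-06) were lower in CONV-Ern2-/-, each in 6 of 6 fits. Chst4 had 1890, 1108 and 1180 normalized counts in COLONIZED-Ern2-/- and 566, 589 and 436 in CONV-Ern2-/-, without overlap. Galnt5 (-1.45, adjusted p = 0.000135; 5 of 6, DESeq2), St6galnac4 (-1.28, adjusted p = 0.000587; 4 of 6), which makes disialyl-T, the galactosyltransferase B3galt2 (-1.63, adjusted p = 0.00939; 2 of 6) and B4galnt3 (-1.41, adjusted p = 0.00865; 1 of 6) were also lower. Their highest adjusted p was 0.0113, 0.0179, 0.129 and 0.148, in each case without COLONIZED-Ern2-/- replicate 1. The call of B4galnt3 (0.0268) was lost with sex as a covariate, and those of St3gal1 (0.0682), St6galnac4 (0.0443), B3galt2 (0.0365), B4galnt3 (0.0504) and Chst4 (0.0161) in 1 fit of all 18 libraries (adjusted p).

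Cell markers also differed between these groups. COLONIZED-Ern2-/- had goblet sums of 143500 to 274100 and colonocyte sums of 84830 to 163200, against the CONV-Ern2-/- values above, and DESeq2 called 5 of 8 goblet markers lower and 4 of 6 colonocyte markers higher in CONV-Ern2-/-. The same fit called 2 of 7 epithelial markers higher, 1 of 6 stem and proliferation markers lower, 2 of 5 enteroendocrine markers lower, 1 of 6 mesenchyme markers higher and 1 of 2 endothelial markers higher. Their part in the member values was not tested. The WT library with the nearest marker sums, CONV-WT replicate 3, had 9.13 normalized counts of Fut9 and 604 of Chst4. Replicates 1 and 2 of CONV-WT had 203 and 90.9 of Fut9 and 3041 and 2307 of Chst4. St6gal1 was 535 in CONV-WT replicate 3, against 833 and 742 in replicates 1 and 2 and 218 to 378 in CONV-Ern2-/-. GF-Ern2-/- replicate 2, with the highest colonocyte sum (423900), had 186 of Fut9, 1629 of St6gal1 and 651 of Chst4.

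B3gnt7 was low in CONV-WT replicate 3 and in CONV-Ern2-/-. It had 9813, 6817 and 246 normalized counts in CONV-WT, 216, 1789 and 132 in CONV-Ern2-/- and at least 3992 in all libraries outside CONV-Ern2-/- and CONV-WT replicate 3. In the main fits it was called in 0 comparisons, the nearest being CONV-Ern2-/- against GF-Ern2-/- (log2 fold change -3.93, SE 1.14, DESeq2 adjusted p = 0.0125). A replicate block called it lower in CONV-Ern2-/- than in GF-Ern2-/- (-5.02, DESeq2 adjusted p = 0.00297) and than in COLONIZED-Ern2-/- (-4.45, adjusted p = 0.0072). St3gal5, the GM3 ganglioside synthase, had 0.943 to 1632 normalized counts over the 18 libraries. WT libraries had 6.15, 144 and 243 (GF), 17.1, 142 and 751 (COLONIZED) and 0.943, 20.7 and 378 (CONV), and those labelled Ern2-/- had 2.24, 1632 and 18.8 (GF), 4.98, 32.4 and 433 (COLONIZED) and 1614, 473 and 1087 (CONV). It varied widely within groups and was also called in 0 comparisons in the main fits. With sex as a covariate St3gal5 passed as higher in CONV-Ern2-/- than in COLONIZED-Ern2-/- (5.84, DESeq2 adjusted p = 1.92e-06) and than in CONV-WT (10.1, adjusted p = 0.000695). With a replicate block it passed as lower in COLONIZED-Ern2-/- than in COLONIZED-WT (-1.46, DESeq2 adjusted p = 0.000604).

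**Figure D5:**
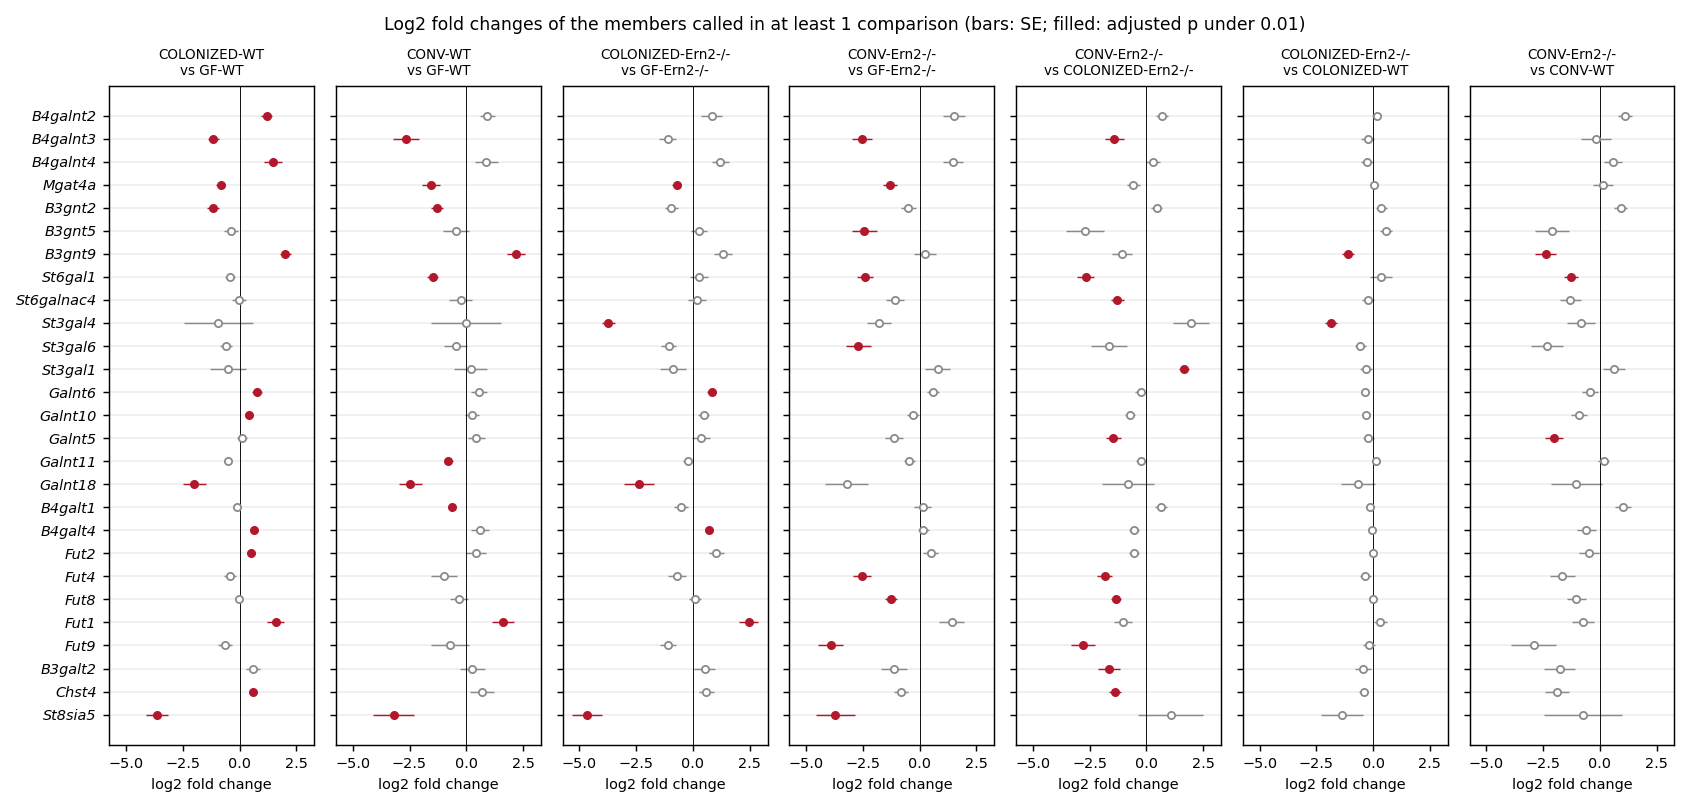
Log2 fold changes (points) with SE (bars) of the 27 members called in at least 1 comparison, with filled points at a DESeq2 adjusted p under 0.01. St3gal4 stands at -3.73 for COLONIZED-Ern2-/- against GF-Ern2-/-, and its SE against GF-WT is 1.53 in COLONIZED-WT.

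The genotype labels were compared within each state. In CONV mice DESeq2 called 3 of 56 members (5.36%; 3.03% of all genes tested), all lower in Ern2-/- (1.96% of genes), and edgeR called 0 (0% of genes). Members under an unadjusted p of 0.05 numbered 20 in DESeq2 and 15 in edgeR (share of all genes not given). B3gnt9 had 57.4, 37.8 and 27.6 normalized counts in CONV-Ern2-/-, all below CONV-WT (log2 fold change -2.38, SE 0.45, DESeq2 adjusted p = 2.38e-05; 6 of 6 fits). Galnt5 had 195, 220.0 and 135, where CONV-WT had 906, 902 and 418, also without overlap (log2 fold change -2.01, SE 0.39, DESeq2 adjusted p = 2.48e-05; 6 of 6 fits). In this comparison 0 goblet markers were called higher and 5 lower of 8, and 3 colonocyte markers higher and 0 lower of 6, besides 1 of 6 stem and proliferation markers lower (DESeq2), with their part not tested. St6gal1 was 2.43-fold lower (log2 fold change -1.28, SE 0.31, DESeq2 adjusted p = 0.00184), in 2 of 6 fits, with adjusted p 0.0821 without CONV-WT replicate 1. It missed the threshold with sex as a covariate (0.0296) and in 1 fit of all 18 libraries (0.0119). With sex as a covariate Chst4 (-2.52, DESeq2 adjusted p = 0.00671) passed as lower and St3gal5, given above, as higher.

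Leaving out CONV-WT replicate 3 gave 18 calls, 15 lower and 3 higher in Ern2-/-, in a fit that called 12.4% of all genes. Lower were, among others, Chst4 (-2.33, adjusted p = 6.63e-19), Fut4 (-2.09, adjusted p = 4.85e-10), Fut9 (-3.47, adjusted p = 4.5e-06), Fut2 (-0.87, adjusted p = 2.44e-05), St6galnac6 (-1.09, adjusted p = 0.001) and St6galnac2 (-0.68, adjusted p = 0.000723). Higher were B4galnt2 (1.21, adjusted p = 0.000957), St3gal1 (1.29, adjusted p = 6.94e-05) and St3gal5 (6.62, adjusted p = 1.49e-05), all by DESeq2 on the log2 scale. With all libraries B4galnt2 had 50110, 27770 and 44200 normalized counts in CONV-Ern2-/- and 14740, 20540 and 21850 in CONV-WT, without overlap but with a p that missed the threshold (log2 fold change 1.10, SE 0.31, DESeq2 adjusted p = 0.0113).

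In COLONIZED mice DESeq2 called 2 of 53 members (3.77%; 1.37% of all genes tested), both lower in Ern2-/- (0.853% of genes), and edgeR called 0 (0.00786% of genes). Members under an unadjusted p of 0.05 numbered 13 and 9 in the respective tools (share of all genes not given). Besides St3gal4, the call was B3gnt9, with 129, 74.7 and 62.2 normalized counts and no overlap with COLONIZED-WT (log2 fold change -1.11, SE 0.27, DESeq2 adjusted p = 0.00527). It was called in 1 of 6 fits, with adjusted p 0.0788 without COLONIZED-WT replicate 1, and not in 1 fit of all 18 libraries (0.087). As for the markers, 0 goblet markers were called higher and 2 lower of 8, and 0 colonocyte markers higher and 0 lower of 6, besides 1 of 6 stem and proliferation markers lower (DESeq2; part not tested). Leaving out COLONIZED-Ern2-/- replicate 1, which has Ern2 in the WT range, gave 9 calls beside 5.26% of all genes, 8 lower and 1 higher. The lower ones included St3gal4 (-2.21, adjusted p = 2.35e-21), B3gnt9 (-1.48, adjusted p = 3.95e-07), Chst4 (-0.69, adjusted p = 2.29e-05), St3gal3 (-0.81, adjusted p = 0.00123) and St3gal6 (-0.90, adjusted p = 0.00115; DESeq2), and the higher one was Mgat4c (1.77, adjusted p = 0.00613), a relative of Mgat4a.

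In GF mice DESeq2 called 0 of 61 members (0.0349% of all genes tested) and edgeR 0 (0% of genes), and 0 were under an unadjusted p of 0.05 in either tool. B4galnt2 gave 0.52 (SE 0.76) and Fut2 -0.53 (SE 0.31) on the log2 scale. With GF-Ern2-/- replicates 1 and 3 left out for their Ern2 level, replicate 2 alone differed from GF-WT by DESeq2 in Fut2 (-1.34, adjusted p = 1.51e-06), St3gal3 (-1.34, adjusted p = 2.69e-06), B4galt1 (0.77, adjusted p = 0.00353) and B4galnt2 (1.5, adjusted p = 0.00635), while 4.53% of all genes were called. That library is assumed to vary like the WT ones, and its colonocyte sum was 423900, against 38410 and 61590 in replicates 1 and 3.

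Whether the response differed by label was tested as an interaction. For CONV against GF, 0 of 59 members were called by DESeq2 (0.177% of all genes tested) and 0 by edgeR (0%), and those under an unadjusted p of 0.05 numbered 8 and 6. The smallest adjusted p was that of B3gnt9 (-1.96, SE 0.55, DESeq2 adjusted p = 0.0594). Without CONV-WT replicate 3, Fut9 (-3.76, adjusted p = 0.000154), Chst4 (-1.93, adjusted p = 0.000279) and B3gnt9 (-2.22, adjusted p = 0.000851) passed in DESeq2, beside 2.23% of all genes. For COLONIZED against GF, 0 of 61 were called by DESeq2 (0.028%) and 0 by edgeR (0%), 0 were under an unadjusted p of 0.05 in either tool, and the smallest adjusted p was 0.901. Calls under other settings were those of St3gal4 without GF-WT replicate 2, given above (0.13% of all genes), and of Fut2 (1.18, adjusted p = 0.00311; 3.41% of all genes, DESeq2) without the libraries labelled Ern2-/- in the WT range of Ern2, where GF-Ern2-/- is replicate 2 alone.

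Genes that supply these enzymes were examined as lists. In COLONIZED-WT against GF-WT, genes of sugar nucleotide synthesis were called by DESeq2 in both directions. Gmds (0.71, adjusted p = 2.71e-06), which starts GDP-fucose synthesis, and the fucose kinase Fuk (0.45, adjusted p = 0.00229) were higher, and Gfpt1 (-0.54, adjusted p = 0.000351), the first enzyme toward UDP-GlcNAc, and Uap1l1 (-0.99, adjusted p = 4.08e-05) were lower. In that comparison 18.3% of all genes were called. Of 14 transporters (21.4% called), Slc35b2 (0.58, adjusted p = 0.000154), which carries the sulfate donor, was higher, and Slc35a5 (-0.83, adjusted p = 1.69e-05) and the sulfate transporter Slc26a2 (-1.74, adjusted p = 4.02e-12) were lower. Of 10 O-glycan core enzymes Galnt3 (0.56, adjusted p = 0.00636) and Galnt12 (0.56, adjusted p = 0.00595) were higher and Gcnt1 (-1.33, adjusted p = 2.69e-07) lower, and of 15 Golgi structure genes 1 was called (all DESeq2, log2).

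In CONV-WT against GF-WT, Gmds (0.74, adjusted p = 1.67e-05) and Tsta3 (0.49, adjusted p = 0.00134), the second enzyme of GDP-fucose synthesis, were higher by DESeq2, and Slc26a2 (-2.28, adjusted p = 4.94e-07) and Gcnt1 (-1.80, adjusted p = 2.31e-06) lower. In CONV-Ern2-/- against COLONIZED-Ern2-/-, 3 of 14 transporters were lower (with 3.73% of all genes), the CMP-sialic acid carrier Slc35a1 (-0.62, adjusted p = 0.00103), the UDP-galactose carrier Slc35a2 (-0.85, adjusted p = 0.00574) and the UDP-GlcNAc carrier Slc35a3 (-1.46, adjusted p = 2.53e-05; DESeq2). That fit also called 2 of 10 O-glycan core enzymes (Galnt3 and Galnt7) and 1 of 15 Golgi structure genes (Tmem165) lower. Papss2, from the list of sugar nucleotide synthesis, was called higher (with 4.86% of all genes). In COLONIZED-Ern2-/- against GF-Ern2-/-, Galnt3 (0.96, adjusted p = 0.000936) and Galnt12 (0.79, adjusted p = 0.000271) were higher, and Slc26a2 (-1.10, adjusted p = 1.32e-05) and Uap1l1 (-1.04, adjusted p = 0.00115) lower. In CONV-Ern2-/- against GF-Ern2-/-, Gfpt1 (-1.04, adjusted p = 0.00343), Slc35a3 (-1.17, adjusted p = 0.00182) and Gcnt1 (-1.19, adjusted p = 0.00275) were lower (DESeq2). Between labels in CONV mice, Tsta3 (-0.58, adjusted p = 0.00941) and B3gnt6 (-2.46, adjusted p = 4.97e-05), the core 3 synthase, were lower in Ern2-/- (B3gnt6 also in GF mice, -2.31, adjusted p = 0.000425, and in COLONIZED mice, -2.32, adjusted p = 4.53e-14), and Slc35d1 (1.63, adjusted p = 0.00882) and Slc35d2 (1.03, adjusted p = 0.00418) higher, by DESeq2.

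Of the 61 members, 27 were called in at least 1 of the 9 group comparisons and 34 in none. The share of all genes called in at least 1 comparison is not given here, so this count is not a result about the members. The 34 included the abundant Mgat4b, at 6051 to 9405 normalized counts over the 18 libraries, B3gnt3 (1262 to 4953), St6galnac6 (3965 to 17660), St6galnac2 (826 to 2028) and B3galt5 (1119 to 12210). Mgat1 and Mgat2, which prime complex N-glycans, had 864 to 1825 and 351 to 1102. 

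Among 16 capping and chain enzymes named whatever their call, log2 fold changes over the 9 comparisons were -2.68 to 0.34 for St6gal1, called in 4, and St3gal4 (-3.73 to 1.95), Chst4 (-1.90 to 0.69) and Fut8 (-1.33 to 0.08), called in 2 each. Called in 1 were Fut2 (-0.54 to 1.03), B4galnt2 (-0.25 to 1.52), St3gal1 (-0.87 to 1.66), St3gal6 (-2.70 to 0.14) and B4galt1 (-0.63 to 1.02). Called in none were B3gnt3 (-0.65 to 0.24), B3gnt7 (-3.93 to -0.10), St3gal3 (-0.88 to 0.65), St6galnac1 (-2.05 to -0.41), St6galnac2 (-0.45 to 0.32), St6galnac6 (-0.72 to 0.09) and Chst5 (-5.06 to 2.39) (DESeq2). Chst5 had 0 counts in every CONV-Ern2-/- library, so its fitted fold changes with that group are not exact sizes. An adjusted p above the threshold with 3 libraries a group does not show that a gene was unchanged.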

How the data were processed

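RNA-Seq libraries of colon crypt epithelial cells were described by their labels as 6 groups of 3. Per the study's methods and the submitters' processing notes, the authors prepared stranded libraries, aligned reads with STAR (the notes name mm10) in the VIPER pipeline, and deposited raw read counts per gene symbol, without normalization or pooling. Versions, gene models and how strand was counted are not given in the sources used here. The labels do not say more of the replicates than that they are separate samples, so p-values set group differences against the estimated spread between these samples.

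Each of 9 group comparisons was fitted on its own 6 libraries, and 2 interactions on 12, with the Wald test of DESeq2 1.42.0 (R 4.3.3) on all 24047 genes, and calls were made at p under 0.01 after Benjamini-Hochberg adjustment. Normalized counts were divided by size factors over all 18 libraries, and per kb values used GRCm38 exon lengths. The scripts were tested on simulated data. The members and lists were chosen with earlier results of these data known. Named in each comparison were all called members, or the 12 with the smallest adjusted p, with family leaders, and 16 fixed capping enzymes (such as Fut2, B4galnt2, St3gal4 and Chst4), given at the end by their range where a comparison did not call them. Alternatives were edgeR 4.0.16, TMM factors, a filter on low counts, a replicate block, sex as a covariate, 1 fit of all 18 libraries, leaving out each library in turn and, added after seeing the data, leaving out the 3 libraries labelled Ern2-/- with Ern2 in the WT range. A gene whose adjusted p DESeq2 gave as NA was counted as not tested. A result of 1 gene of sugar nucleotide synthesis is not reported here, and no count is given for that list.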

Additional observations from a re-analysis of the deposited data

How the results depend on the processing

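By edgeR, 0 members were called for CONV-Ern2-/- against CONV-WT, 0 for COLONIZED-Ern2-/- against COLONIZED-WT, 0 for CONV-WT against GF-WT, 2 for COLONIZED-WT against GF-WT, 0 for CONV-Ern2-/- against GF-Ern2-/-, 1 for COLONIZED-Ern2-/- against GF-Ern2-/- and 1 for CONV-Ern2-/- against COLONIZED-Ern2-/-. In 1 fit of all 18 libraries the counts were 7 for CONV-Ern2-/- against CONV-WT, 0 for COLONIZED-Ern2-/- against COLONIZED-WT, 6 for COLONIZED-WT against GF-WT, 14 for CONV-Ern2-/- against GF-Ern2-/- and 6 for CONV-Ern2-/- against COLONIZED-Ern2-/-. The shares of all genes called in that fit are not given here, so these counts do not compare the members with other genes. With sex as a covariate COLONIZED-WT against GF-WT gave 2. Without the libraries labelled Ern2-/- that had Ern2 in the WT range, a choice made after seeing the data, GF-Ern2-/- against GF-WT gave 4, CONV-Ern2-/- against GF-Ern2-/- gave 5 and the COLONIZED interaction gave 1 (Fut2). These 3 counts rest on GF-Ern2-/- replicate 2 as the only library of its group, which is assumed to vary like the others. This setting ended 10 of the 16 calls recomputed under it. The cause of these differences was not tested. TMM factors and the filter on low counts moved no count by more than 1.5 times.

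With a replicate block the counts were 7 for CONV-Ern2-/- against CONV-WT, 5 for COLONIZED-Ern2-/- against COLONIZED-WT and 13 for COLONIZED-Ern2-/- against GF-Ern2-/-. Shares of all genes called under the block are not given here, so these counts are not a result about the members. Samples with the same replicate number did not pair, since all 3 correlations exceeded 0.1 in 0 of 9 comparisons (range -0.258 to 0.614), and every sample correlated best with its own number in 0.

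Leaving out single libraries gave 2 to 18 calls for CONV-Ern2-/- against CONV-WT, 0 for GF-Ern2-/- against GF-WT, 1 to 9 for COLONIZED-Ern2-/- against COLONIZED-WT, 5 to 16 for CONV-WT against GF-WT and 7 to 16 for COLONIZED-WT against GF-WT (7 without COLONIZED-WT replicate 1). It gave 5 to 13 for CONV-Ern2-/- against GF-Ern2-/- (without GF-Ern2-/- replicates 1 and 2), 4 to 12 for COLONIZED-Ern2-/- against GF-Ern2-/- (without COLONIZED-Ern2-/- replicate 3 and GF-Ern2-/- replicate 2), 0 to 3 for CONV-WT against COLONIZED-WT and 6 to 16 for CONV-Ern2-/- against COLONIZED-Ern2-/- (without COLONIZED-Ern2-/- replicate 1 and CONV-Ern2-/- replicate 1). The interactions gave 0 to 3 (CONV) and 0 to 1 (COLONIZED). Shares of all genes are given above for only some of these fits. The ranges therefore show how far the counts moved and do not compare the members with other genes.

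Of 676 values recomputed for the 55 calls, 478 stayed past the threshold, 198 did not and 0 changed direction. Leaving out 1 library accounted for 90 of the losses in 330 values, edgeR for 51 of 55, and sex and the single fit for 20 of 55 each. Low members such as St8sia5, Galnt18 and Chst5 rest on few counts.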
